A study of Mus musculus with 18 samples.

Results

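The comparison described here set the lungs of A/J mice given resiquimod and then ovalbumin against those of A/J mice challenged with PBS. Its members are all samples that the labels place in these groups, 6 of the 18 samples of the series, and it was read over 45037 probe sets that stand for 18193 genes. The study measured expression in whole lung on Affymetrix arrays in A/J and C57BL/6 mice, with 3 arrays in each of 6 groups. It asked how resiquimod alters the lung transcriptome of an acute allergic asthma model, and the comparison with PBS shows which parts of the allergic response were still present after resiquimod and which changes came beside it.

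Every mouse was male, 16 weeks old and sensitized with 3 weekly intraperitoneal injections of 100 µg ovalbumin in alum, so the PBS mice were allergic but not challenged. Aerosols of 30 min followed 7 days later on 3 days, with PBS in the group called the PBS group here and with 1% ovalbumin in the ovalbumin and resiquimod groups. The resiquimod group also received 100 µg resiquimod intraperitoneally on 3 days, 24 h before each aerosol. In this design ovalbumin and resiquimod differ together between the resiquimod and PBS groups, resiquimod was not given to any group on its own, and no vehicle injection is named in the labels. The samples of a group are called biological replicates in the labels. The p-values from limma rest on the spread between arrays within groups, estimated jointly over all 18 arrays of the 6 groups. They measure no other source of variation. In whole lung, a change in the number of cells of a type and a change in RNA per cell cannot be told apart.

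In allergic lung, T helper 2 cells and innate lymphocytes release interleukins 4, 5 and 13, which act through the transcription factor STAT6 on airway epithelium and macrophages. The epithelium then makes mucus, macrophages take up an alternative program with chitinase-like and resistin-like proteins, and chemokines draw eosinophils into the tissue. Resiquimod is a small imidazoquinoline that activates Toll-like receptor 7 in mice, an endosomal sensor of single-stranded RNA that signals through MyD88 to cytokine and interferon genes in plasmacytoid dendritic cells, macrophages and B cells.

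Arrays of a group correlated with r between 0.987 and 0.997 across probe sets, and probe control ratios did not separate the groups (beta-actin 3' minus 5' averaged 0.413 in PBS and 0.483 in resiquimod arrays, exact permutation p = 0.3, two-sided). Transcripts of squamous epithelium, with a list mean above 6 on the log2 scale, were present on 8 of the 18 arrays, among them A/J PBS replicate 1 (7.04) and A/J resiquimod replicate 1 (6.87). The other A/J PBS and resiquimod arrays lay between 3.95 and 4.20 on that list. Skeletal muscle genes averaged 7.72, 4.42 and 7.79 in the PBS arrays and 7.40, 4.26 and 5.20 in the resiquimod arrays. None of the 15 squamous and none of the 12 skeletal muscle genes passed the test between the groups in limma, nor did any at an unadjusted p under 0.05. Of all genes, 5.86% passed as higher and 5.27% as lower at an adjusted p under 0.05. A/J resiquimod replicate 3 stood apart from its group on the second component of the variation within groups (a score of -37.1, against 16.3 and 20.8 for replicates 1 and 2). Beside many of the results stand values with an array left out, each in turn where several are named, or from the 10 arrays without squamous transcripts, an alternative chosen after seeing the data. In those 10 arrays the A/J PBS and resiquimod groups keep 2 arrays each, and A/J ovalbumin and C57BL/6 PBS keep 1 each, which is assumed to vary like the other groups.

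At an adjusted p under 0.05 in limma, 1066 of 18193 genes were higher and 959 were lower in the resiquimod group than in the PBS group, which is 5.86% and 5.27% of all genes tested. At 2-fold or more, 195 genes were higher and 66 were lower (1.07% and 0.363%). The genes with the largest rises were those of neutrophil chemokines (Cxcl3, Cxcl2), cytotoxic lymphocytes (Gzma, Gzmb, Prf1, Nkg7, Ccl5), acute inflammation (Saa3, Lcn2, Stfa2l1), interferon gamma (Cxcl9), plasma cells (Mzb1), goblet cells (Clca1), dividing cells (Birc5) and monocytes (Fcgr4). The largest falls included genes of red cells (Alas2, Hbb-b2, Slc4a1, Slc25a37), matrix (Fmod, Mfap4, Pcolce), lipid synthesis (Thrsp, Scd1) and heart muscle (Tnnc1), with the lectin gene Cd209a and the antiviral gene Rsad2. The remaining genes among the 15 largest falls were Slc38a5, an amino acid transporter (-1.95 ± 0.10), Nptx1, a pentraxin (-1.87 ± 0.13), and Bex2 (-1.76 ± 0.13), each log2 difference given with its standard error. Without A/J PBS replicate 3 the count of lower genes was 599, without A/J PBS replicate 1 the counts were 744 higher and 806 lower, and in a fit on the 6 arrays compared the counts were 632 higher and 553 lower. In the 10 arrays without squamous transcripts, 427 genes were higher and 450 lower.

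**Figure D1:**
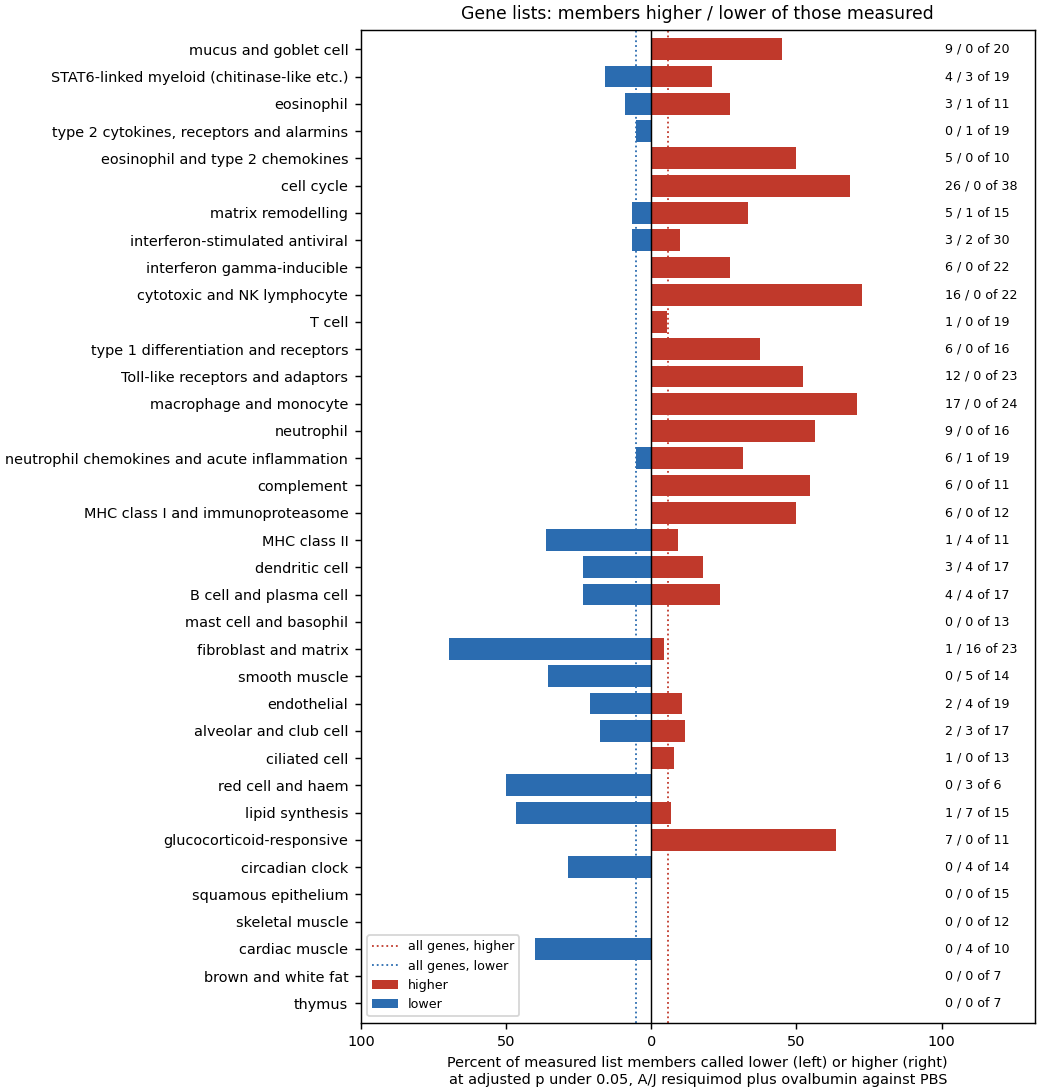
Percent of the measured members of each gene list that were called higher (red, right) or lower (blue, left) in A/J resiquimod plus ovalbumin against PBS, with the counts at the right and dotted lines at the 5.86% and 5.27% of all genes. The cytotoxic lymphocyte list (16 of 22 higher) and the fibroblast and matrix list (16 of 23 lower) had the longest bars in their directions.

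To see how much of the ovalbumin response was present after resiquimod, genes were taken from C57BL/6 mice, which share no array with A/J. The estimate of spread per probe set in limma was still shared by all 18 arrays. In C57BL/6 lung, 262 genes were higher in the ovalbumin group than in PBS, 1.44% of those tested, and are called raised by ovalbumin here. They include Nnt, a mitochondrial gene that separates C57BL/6 substrains (1.33 in C57BL/6 and -0.048 in A/J for ovalbumin minus PBS). How many of the 262 reflect such a difference between mice and not ovalbumin was not tested. In A/J lung, 156 of these 262 genes (59.5%) were higher in the resiquimod group than in the PBS group, 7 were lower and 99 were not called. Their median A/J difference was 0.50 on the log2 scale, with a middle range from 0.19 to 0.94, beside -0.0069 for all genes. The ovalbumin group of A/J, set against the same PBS arrays, had 217 of the 262 higher and a median of 0.76, where 3.2% of all genes were higher. Against the ovalbumin group, 98 of the 262 were lower in the resiquimod group and 16 were higher, beside 5.39% and 4.38% of all genes. Of the 28 genes that ovalbumin lowered in C57BL/6 lung (0.154%), 11 were lower and 1 was higher in the A/J resiquimod group. In the 10 arrays without squamous transcripts, the C57BL/6-raised genes called higher in A/J numbered 95 for the resiquimod group.

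**Figure D2:**
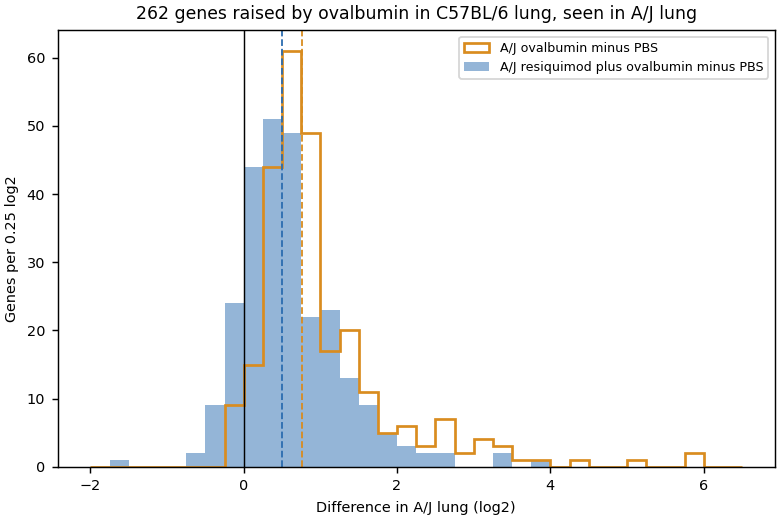
Number of genes per 0.25 log2 step by their difference in A/J lung, for the 262 genes raised by ovalbumin in C57BL/6 lung; the orange outline is ovalbumin minus PBS, the blue area resiquimod plus ovalbumin minus PBS, and dashed lines mark the medians of 0.76 and 0.50. Both distributions lie mostly right of 0, and values above 4 occur only for ovalbumin minus PBS; the PBS arrays are shared.

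The 10 genes that ovalbumin raised most in C57BL/6 lung did not keep a common share of their rise in the A/J resiquimod group. Differences from PBS, given for the A/J ovalbumin and then the resiquimod group, were 5.85 and 3.43 for Clca1, and 3.28 and 2.38 for Retnla. They were 4.40 and 1.40 for Slc26a4, 3.31 and 1.07 for Agr2, 2.81 and 0.84 for Muc5ac, and 3.04 and 0.64 for Fcgbp. These 6 passed the test in the resiquimod group. The other 4 did not: Chil4 (5.86 and 0.47), Rnase2a (5.12 and 0.25), Fer1l6 (3.96 and 0.73) and Scin (3.02 and 0.50), although the resiquimod and PBS arrays did not overlap for Fer1l6, which was called without C57BL/6 resiquimod replicate 3 (adjusted p = 0.0141). The call of Agr2 was lost without A/J PBS replicate 1 or A/J resiquimod replicate 1 or 3 (adjusted p of 0.0554 to 0.134), and that of Fcgbp without A/J PBS replicate 1 or 2 or A/J resiquimod replicate 1 or 3 (0.0537 to 0.108).

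Of 20 mucus and goblet cell genes, 9 were higher in the resiquimod group than in the PBS group, and none was lower. The list's median difference was 0.34, against 1.46 in the ovalbumin group, where 14 were higher. Clca1, a secreted goblet cell protein of the mucus layer, read 5.97, 6.72 and 8.43 in PBS replicates 1, 2 and 3 on the log2 scale, 12.87, 12.95 and 12.83 in the ovalbumin arrays and 10.91, 9.89 and 10.61 in the resiquimod arrays. PBS replicate 3 was the highest of its group, yet all resiquimod arrays lay above it and below every ovalbumin array. Clca1 rose 10.8-fold over PBS (3.43 ± 0.48 SE on the log2 scale, adjusted p = 0.000194) and was lower than in the ovalbumin group (-2.42, adjusted p = 0.00454).

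Slc26a4, the airway anion exchanger pendrin, read 5.82, 6.12 and 5.70 in PBS and 7.46, 7.22 and 7.15 in resiquimod arrays and rose 2.63-fold (adjusted p = 0.000314); its ovalbumin arrays lay from 10.20 to 10.42. Tff2, a trefoil peptide that protects mucosa, was higher in resiquimod replicate 1 (8.18) than in replicates 2 and 3 (6.58 and 6.84), and all were above the PBS arrays (5.69, 5.62 and 6.03; 1.42 ± 0.29, adjusted p = 0.00506). Muc5ac, the gel-forming mucin of goblet cells, read 4.59, 4.93 and 4.89 in PBS and 6.27, 5.34 and 5.32 in resiquimod arrays, so its rise of 0.84 (adjusted p = 0.0394) rested mostly on replicate 1, an array with squamous transcripts. The call of Muc5ac was lost with the replicate number as a block (adjusted p = 0.0766) and without A/J PBS replicate 1, 2 or 3, A/J resiquimod replicate 1 or C57BL/6 ovalbumin replicate 3 (0.0504 to 0.173). Muc5b, the mucin of resting airways, rose by 0.82 ± 0.18 (adjusted p = 0.00707). Leaving out A/J PBS replicate 1 or A/J resiquimod replicate 1 gave 5 higher genes of the 20, and the fit on 6 arrays gave 4; 2 were called in the 10 arrays without squamous transcripts, where the list's median was 0.22 and Muc5ac differed by 0.42 (adjusted p = 0.35).

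**Figure D3:**
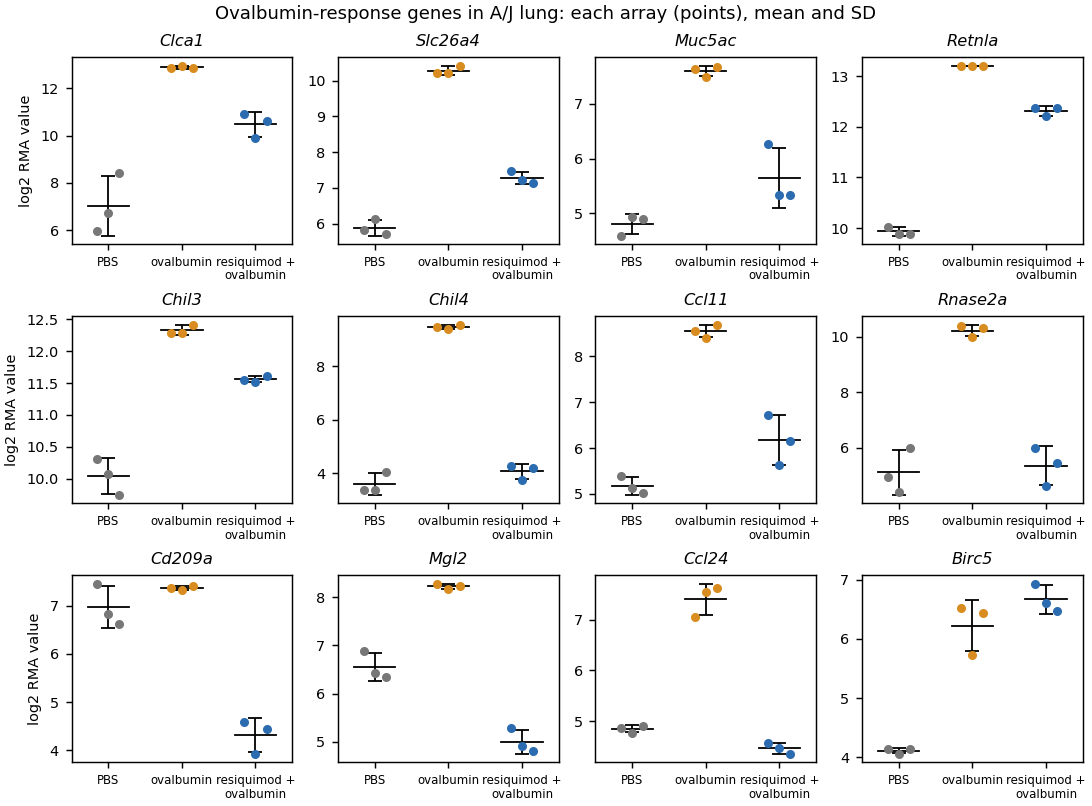
Log2 RMA value of 12 genes of the ovalbumin response on each array (points) of the A/J PBS, ovalbumin and resiquimod plus ovalbumin groups, with the mean (line) and SD (bar) of 3 arrays; axes differ between genes. Clca1, Slc26a4, Retnla and Chil3 lie between the other groups after resiquimod, Chil4 and Rnase2a overlap PBS, Cd209a and Mgl2 lie below PBS, and Birc5 is high in both challenged groups.

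Chitinase-like, resistin-like and other STAT6-linked genes, mainly of myeloid cells but also of airway epithelium, went in different directions. Of 19 measured, 17 were higher in the A/J ovalbumin group over PBS, while 4 were higher and 3 lower in the resiquimod group. Retnla, a resistin-like protein of alternatively activated macrophages and epithelium, read 10.03, 9.89 and 9.88 in PBS arrays, 13.21, 13.21 and 13.21 in ovalbumin arrays and 12.37, 12.21 and 12.37 in resiquimod arrays. No groups overlapped, and Retnla was 5.21-fold above PBS (2.38 ± 0.13, adjusted p = 1.12e-08) and -0.89 against ovalbumin (adjusted p = 0.000324). Chil3, the chitinase-like lectin Ym1 of macrophages, read 10.30, 10.07 and 9.75 in PBS and 11.55, 11.52 and 11.62 in resiquimod arrays (2.87-fold, 1.52 ± 0.11, adjusted p = 2.50e-07).

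Chil4, the neighbouring gene for the related lectin Ym2, read 3.36, 3.38 and 4.06 in PBS, 9.45, 9.38 and 9.55 in ovalbumin and 4.28, 3.76 and 4.18 in resiquimod arrays. Its resiquimod arrays overlapped PBS (0.47 ± 0.40, adjusted p = 0.58) and were -5.39 on the log2 scale against ovalbumin (adjusted p = 3.32e-07). The probe sets of these paralogues may share signal, which was not tested.

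The promoters of these 3 genes are shown because Chil3 rose and Chil4 did not pass the test although their upstream sequence is closely related. The sequences are the 250 bases before the RefSeq start site on GRCm38.p6, whose reference strain is C57BL/6 and not A/J, and run 5′ to 3′ on the gene's strand. Capitals mark TTC and GAA parted by 4 bases, the spacing bound by STAT6, or by 3 bases, the spacing of most STAT factors. Retnla lies at chr16:48842359-48842608 on the plus strand, Chil3 at chr3:106167565-106167814 and Chil4 at chr3:106219480-106219729, both on the minus strand.
Retnla: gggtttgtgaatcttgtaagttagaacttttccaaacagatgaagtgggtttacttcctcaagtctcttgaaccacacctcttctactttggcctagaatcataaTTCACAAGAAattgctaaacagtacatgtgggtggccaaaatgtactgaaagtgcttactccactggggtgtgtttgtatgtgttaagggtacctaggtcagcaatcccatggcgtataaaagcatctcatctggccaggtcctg
Chil3: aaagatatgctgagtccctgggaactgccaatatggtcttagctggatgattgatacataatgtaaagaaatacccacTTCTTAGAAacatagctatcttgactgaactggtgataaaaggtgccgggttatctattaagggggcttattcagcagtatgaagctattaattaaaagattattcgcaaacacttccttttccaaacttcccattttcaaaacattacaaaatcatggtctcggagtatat
Chil4: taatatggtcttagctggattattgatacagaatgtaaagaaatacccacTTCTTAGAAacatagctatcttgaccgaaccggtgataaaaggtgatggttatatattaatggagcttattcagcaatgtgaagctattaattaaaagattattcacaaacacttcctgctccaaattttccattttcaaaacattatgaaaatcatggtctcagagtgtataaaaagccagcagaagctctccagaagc
Retnla held TTCACAAGAA, which begins 145 bases before the start, and Chil3 and Chil4 both held TTCTTAGAA, 172 and 200 bases before it. In an end-to-end alignment of the Chil3 and Chil4 upstream sequences, 201 of 279 columns were identical (72%). The columns include gaps, and the windows are offset, as the shared match lies 172 and 200 bases before the start. The 72% is therefore lower than the identity among bases that were paired. Matches were searched on both strands in windows of 300 bases, from 250 before to 50 after a start; a window was found for 14367 of the 18193 genes. Of those genes, 6.92% held the STAT6 spacing and 8.57% the spacing of 3 bases, and among the 859 higher genes with a window the shares were 8.61% and 9.55%. The motif shares are descriptions, and a match is not evidence of binding.

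Chia1, the acidic chitinase of the airway, rose by 0.96 ± 0.22 (adjusted p = 0.00979), and Mrc1, the macrophage mannose receptor, by 0.54 ± 0.12 (adjusted p = 0.00836). By contrast Cd209a, a C-type lectin of monocyte-derived dendritic cells, fell below PBS. It read 7.46, 6.83 and 6.63 in PBS, 7.37, 7.33 and 7.41 in ovalbumin and 4.59, 3.93 and 4.43 in resiquimod arrays, so the resiquimod arrays lay apart from both groups (-2.65 ± 0.21 against PBS, adjusted p = 7.23e-07). Mgl2, the galactose lectin CD301b, was 1.67 above PBS in the ovalbumin group but read 5.28, 4.91 and 4.82 in resiquimod against 6.87, 6.42 and 6.35 in PBS arrays (-1.55 ± 0.15, adjusted p = 6.86e-06). Cd209d also fell (-0.63 ± 0.16, adjusted p = 0.0197), a call lost without A/J PBS replicate 1 or A/J resiquimod replicate 2 or 3 (0.077 to 0.101). Several genes high after ovalbumin were near PBS after resiquimod, none of them called. Differences of Rnase2a, an eosinophil-associated ribonuclease, Cd209e, Ccl17 and Ccl24 were 0.25 ± 0.38, 0.026 ± 0.21, 0.20 ± 0.23 and -0.38 ± 0.15, and their ovalbumin differences were 5.12, 3.58, 2.50 and 2.55. Ccl24 was called lower than PBS in the fit on 6 arrays (adjusted p = 0.0404) and in a fit on the 12 PBS and resiquimod arrays (0.0464). In the 10 arrays without squamous transcripts, 2 of the 19 genes were higher and 2 lower.

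Among the 10 eosinophil-attracting and type 2 chemokines, 5 were higher than PBS: Ccl2, Ccl7, Ccl8, Ccl11 and Ccl12. The eosinophil attractant Ccl24, also on this list, was not called (-0.38). Ccl11, eotaxin, read 5.39, 5.14 and 5.01 in PBS, 8.56, 8.40 and 8.68 in ovalbumin and 6.72, 5.63 and 6.15 in resiquimod arrays (0.99 ± 0.22, adjusted p = 0.0091). The resiquimod arrays lay just above PBS and well below ovalbumin (-2.38, adjusted p = 3.81e-06). Ccl2, the monocyte attractant MCP-1, rose by 0.90 ± 0.17 (adjusted p = 0.00247) and Ccl7 by 1.12 ± 0.26 (adjusted p = 0.0108; 0.0557 without A/J resiquimod replicate 2). Ccl8 rose by 1.05 ± 0.28 (adjusted p = 0.0271), a call lost without A/J PBS replicate 1 or 2 or A/J resiquimod replicate 1 (0.0774 to 0.111), and Ccl12 by 0.97 (adjusted p = 0.0461), a call lost in 15 of 18 fits that left out an array (0.051 to 0.205). The T cell attractants Ccl17 and Ccl22 (-0.13 ± 0.10) were not called. With A/J PBS replicate 1 or 2 or A/J resiquimod replicate 1 or 2 left out, 3 of the 10 were called; 1 was in the fit on 6 arrays and 0 were in the 10 arrays without squamous transcripts.

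In the A/J ovalbumin group, 3 of 19 type 2 cytokine, receptor and alarmin genes were higher than PBS, beside 3.2% of all genes. Their median difference was 0.016. After resiquimod, 5.86% of all genes were higher and 5.27% lower. Of the 19, 0 were called higher and 1 lower in limma, near those shares (2 higher and 3 lower at an unadjusted p under 0.05). That gene was Tslp, an epithelial alarmin (-0.51 ± 0.13, adjusted p = 0.0176; lost without A/J PBS replicate 3 or A/J resiquimod replicate 1, 0.0891 to 0.101). Il33, an alarmin released by damaged epithelium, read 8.77, 9.23 and 9.23 in PBS, 10.14, 10.45 and 10.54 in ovalbumin and 9.10, 8.88 and 8.75 in resiquimod arrays. The resiquimod arrays overlapped PBS (-0.17 ± 0.18, adjusted p = 0.672), while ovalbumin arrays were higher than both. Il4, Il5 and Il13 differed from PBS by -0.061 ± 0.11, 0.053 ± 0.086 and 0.25 ± 0.11 and were not called. Their values of 2.84 to 4.00 in A/J lung lie below the median of all values, 4.78, where a fall is hard to see.

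Of 11 eosinophil genes, 6 were higher than PBS in the ovalbumin group and none lower, with a median difference of 0.42, where 3.2% of all genes were higher. Set against the ovalbumin group directly, 5 of the 11 were lower and 1 higher after resiquimod, beside 5.39% and 4.38% of all genes. In the resiquimod group the median difference from PBS was 0.05, and 3 of the 11 were higher and 1 was lower than in PBS arrays. The 3 were Adgre1 (1.58 ± 0.14), which encodes a surface receptor of macrophages, and the shared cytokine receptor genes Csf2rb (1.00 ± 0.10) and Csf2rb2 (1.14 ± 0.18), none of them particular to eosinophils. Siglecf, the lectin of eosinophils and alveolar macrophages, was the lower gene (-0.74 ± 0.20, adjusted p = 0.0288), a call lost without A/J PBS replicate 1, 2 or 3 or A/J resiquimod replicate 2 (0.0684 to 0.096). The granule protein genes Prg2 and Epx, which mark eosinophils most directly, read 3.19, 3.11 and 3.02 and 2.96, 3.17 and 3.15 in resiquimod arrays against 3.13, 3.04 and 3.00 and 3.16, 3.19 and 3.13 in PBS arrays. They were not called (0.048 ± 0.15 and -0.065 ± 0.084) and lay at weak signal in both groups. None of 13 mast cell and basophil genes passed the test in limma, near the 5.86% of all genes higher and 5.27% lower (0 higher and 2 lower at an unadjusted p under 0.05).

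Most cell division genes rose after resiquimod, as after ovalbumin alone. Of 38 measured, 26 were higher than PBS in the resiquimod group and 30 in the ovalbumin group, none was lower in either, and the medians were 0.76 and 0.76. Birc5, survivin of the mitotic spindle, read 4.14, 4.06 and 4.14 in PBS and 6.93, 6.60 and 6.47 in resiquimod arrays, a rise of 5.88-fold (2.56 ± 0.20, adjusted p = 6.53e-07). Mki67, the proliferation antigen, rose by 2.26 ± 0.13 (adjusted p = 1.89e-08), Rrm2, which makes deoxynucleotides, by 2.20 ± 0.15 and Top2a, the mitotic topoisomerase, by 2.13 ± 0.16. Set against the ovalbumin group directly, 2 of the 38 were higher and 2 lower, Mki67 among the higher (0.68, adjusted p = 0.0037).

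Of 15 remodelling genes, 5 were higher and 1 lower. Serpina3n, a protease inhibitor of inflamed tissue, rose by 1.68 ± 0.12 (adjusted p = 2.50e-07), close to its difference of 1.51 after ovalbumin. The cathepsin Ctsk rose by 1.20 ± 0.18 (adjusted p = 0.0744 in the 10 arrays without squamous transcripts) and the metalloproteinase inhibitor Timp1 by 0.83 ± 0.15, while the macrophage elastase Mmp12, 2.56 above PBS after ovalbumin, was not called (0.28 ± 0.29). Lox, the lysyl oxidase that cross-links collagen, read 9.13, 8.90 and 8.83 in PBS, 8.69, 8.87 and 8.95 in ovalbumin and 10.31, 10.43 and 10.91 in resiquimod arrays. Its resiquimod arrays lay above all others (3.03-fold over PBS, 1.60 ± 0.15, adjusted p = 4.42e-06; 1.71 against ovalbumin, adjusted p = 2.31e-06). Postn, the matrix protein periostin, fell by 0.73 on the log2 scale (adjusted p = 7.07e-06).

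The clearest change beside the allergic genes was in cytotoxic and natural killer cell genes. Of 22 measured, 16 were higher than PBS and none lower, with a median difference of 1.53; in the ovalbumin group, where 3.2% of all genes were higher and 1.18% lower, 0 were higher in limma (1 at an unadjusted p under 0.05), 1 was lower and the median was 0.01. Gzma, granzyme A of killer cell granules, read 6.18, 6.06 and 5.84 in PBS, 5.74, 5.38 and 5.45 in ovalbumin and 10.19, 10.22 and 9.92 in resiquimod arrays. All resiquimod arrays were near 10 and none of the other A/J arrays was above 6.18, a rise of 16.9-fold (4.08 ± 0.13, adjusted p = 3.40e-11). Gzmb, granzyme B, read 5.06, 4.39 and 4.88 in PBS and 8.55, 8.71 and 8.24 in resiquimod arrays (13.2-fold, 3.72 ± 0.18, adjusted p = 4.20e-09). Prf1, the pore protein perforin that lets granzymes in, read 4.68, 3.95 and 4.29 in PBS and 7.42, 7.67 and 7.11 in resiquimod arrays (8.53-fold, adjusted p = 5.88e-08).

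The granule protein gene Nkg7 rose by 2.74 ± 0.15, and Ccl5, the chemokine RANTES of activated lymphocytes, by 2.81 ± 0.15 (adjusted p = 9.16e-09). Ncr1, the receptor NKp46 that defines natural killer cells, rose by 2.37 ± 0.14 (adjusted p = 2.67e-08), and Klrd1, which encodes CD94, by 2.08 ± 0.16. Klrg1, a receptor of mature killer cells, rose by 1.89 ± 0.15. Gzmk, granzyme K, was not called and lay at weak signal (3.40, 3.06 and 3.41 in resiquimod arrays). The list gave 15 higher genes in the 10 arrays without squamous transcripts and 15 to 17 when an array was left out.

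General T cell genes were called at a rate near that of all genes, of which 5.86% were higher and 5.27% lower. Of 19 measured, 1 was higher, Cd2, an adhesion receptor that natural killer cells also carry (0.66 ± 0.13, adjusted p = 0.00456), and none was lower (3 at an unadjusted p under 0.05). Cd3e, a chain of the T cell receptor complex, read 6.09, 6.28 and 6.15 in PBS and 5.96, 6.14 and 5.94 in resiquimod arrays (-0.16 ± 0.085, adjusted p = 0.311). Cd4 and Cd8a, which mark helper and cytotoxic T cells, differed by -0.24 ± 0.10 and -0.21 ± 0.13 and were not called. Of 16 genes of type 1 differentiation, 6 were higher and none lower. Tbx21, the transcription factor T-bet, read 3.41, 3.24 and 3.24 in PBS and 5.55, 5.66 and 5.05 in resiquimod arrays (4.36-fold, 2.12 ± 0.16, adjusted p = 4.93e-07), and it is shared with natural killer cells. Ebi3, an interleukin 27 subunit, rose by 1.26 ± 0.13, the interleukin 18 receptor chain Il18rap by 1.19 ± 0.078, the receptor chain Il2rb by 1.10 ± 0.10, and Cxcr3 and Stat4 by 0.97 ± 0.20 and 0.90 ± 0.14. The call of Cxcr3 was lost in the fit on 6 arrays (adjusted p = 0.0733) and in the 10 arrays without squamous transcripts (0.158). Ifng itself read 3.14, 4.18 and 3.08 in resiquimod arrays against 2.74, 2.86 and 3.02 in PBS arrays, high in replicate 2 alone, and was not called (0.60 ± 0.28, adjusted p = 0.235).

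Interferon gamma-inducible genes gave 6 higher of 22 and none lower. Gzmb, counted above with the cytotoxic genes, and Cxcl9 had the largest differences. Cxcl9, a chemokine that draws CXCR3-bearing lymphocytes, read 4.25, 4.06 and 4.03 in PBS, 6.98, 7.49 and 7.16 in ovalbumin and 7.40, 7.62 and 7.72 in resiquimod arrays (11.1-fold over PBS, 3.47 ± 0.17, adjusted p = 5.52e-09). It was therefore already high after ovalbumin, and its difference between the resiquimod and ovalbumin groups was not called (0.37, adjusted p = 0.255). Fcgr1, the high-affinity IgG receptor, rose by 1.09 ± 0.12 (adjusted p = 2.26e-05). Cxcl10 was higher by 0.93 ± 0.27 (adjusted p = 0.0441), below its ovalbumin difference of 2.10, and its call was lost without A/J ovalbumin replicate 3, A/J PBS replicate 1, 2 or 3, A/J resiquimod replicate 1 or 2, C57BL/6 PBS replicate 2 or C57BL/6 resiquimod replicate 2 (0.0534 to 0.163). Irf1 (0.11 ± 0.10) and Gbp2 (0.12 ± 0.12), further interferon gamma targets, were not called. Without A/J PBS replicate 2 or resiquimod replicate 2, 3 of the 22 were called.

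Few of the antiviral genes that type I interferon switches on were called. Of 30 measured, 3 were higher and 2 lower, against 5.86% and 5.27% of all genes, and the list's median was -0.03. Irf7, the transcription factor that amplifies interferon and is itself induced by it, read 5.88, 5.99 and 6.31 in PBS and 7.27, 7.27 and 7.16 in resiquimod arrays (2.26-fold, 1.17 ± 0.12, adjusted p = 7.39e-06). Oas1a, a sensor of double-stranded RNA, rose by 0.56 ± 0.12 (adjusted p = 0.00605). Its call was lost in the fit on 6 arrays (adjusted p = 0.0556) and in the 10 arrays without squamous transcripts (0.129). The count of higher genes was 5 without A/J resiquimod replicate 3, 2 without A/J PBS replicate 1 or 2 or A/J resiquimod replicate 1 or 2, and 1 in the fit on 6 arrays and in the 10 arrays. The median changed sign without A/J PBS replicate 3 (0.03) or A/J resiquimod replicate 3 (0.01). Ifit1 and Mx1, antiviral effectors, were not called (-0.04 ± 0.15 and 0.39 ± 0.13), although Mx1 passed with the replicate number as a block (adjusted p = 0.0338).

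Rsad2, which encodes the antiviral protein viperin, went the other way. It read 8.51, 8.30 and 8.03 in PBS, 7.84, 7.98 and 7.73 in ovalbumin and 6.34, 6.22 and 6.02 in resiquimod arrays, so that every resiquimod array lay more than 1 log2 unit below the others (-2.09 ± 0.18, adjusted p = 1.78e-06). Its 3 probe sets fell by 2.09, 1.44 and 1.07 on the log2 scale. Cmpk2, its neighbour on the chromosome and also interferon-induced, fell by 0.37 (adjusted p = 0.0161), a call lost without A/J PBS replicate 3 or A/J resiquimod replicate 2 (0.0576 to 0.0989).

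The promoter of Rsad2 is set beside those of Saa3 and Fcgr4, which were among the largest rises, because all 3 hold the interferon-stimulated response element core, GAAA and GAAA parted by 2 bases, a choice made after the sequences were searched. Capitals mark that match, which reads on the opposite strand in Rsad2. The 250 bases before the RefSeq start on GRCm38.p6 are Rsad2 at chr12:26456453-26456702 on the minus strand, Saa3 at chr7:46715677-46715926 on the minus strand and Fcgr4 at chr1:171018676-171018925 on the plus strand.
Rsad2: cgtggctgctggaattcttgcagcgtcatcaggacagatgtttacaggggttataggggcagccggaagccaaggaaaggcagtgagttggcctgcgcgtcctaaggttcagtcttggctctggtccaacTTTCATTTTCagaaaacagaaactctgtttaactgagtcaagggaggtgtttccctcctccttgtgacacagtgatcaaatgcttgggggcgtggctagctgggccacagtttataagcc
Saa3: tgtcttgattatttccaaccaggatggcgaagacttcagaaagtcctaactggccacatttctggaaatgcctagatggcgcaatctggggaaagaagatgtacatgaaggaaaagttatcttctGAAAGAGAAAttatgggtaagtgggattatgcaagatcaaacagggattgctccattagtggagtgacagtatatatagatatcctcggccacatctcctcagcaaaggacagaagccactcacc
Fcgr4: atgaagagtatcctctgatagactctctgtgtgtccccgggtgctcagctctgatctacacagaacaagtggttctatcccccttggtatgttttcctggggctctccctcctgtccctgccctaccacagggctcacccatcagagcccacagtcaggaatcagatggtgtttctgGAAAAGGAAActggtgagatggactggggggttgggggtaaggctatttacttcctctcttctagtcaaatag
The matches begin 120, 125 and 73 bases before the start. In windows of 300 bases, 523 of 14367 genes (3.64%) held this core on either strand, 5.7% of the higher genes and 3.41% of the lower genes. Of the 21 antiviral list genes with a window, 12 (57.1%) held it, and 1 of these 12 was higher and 1 lower in the resiquimod group. Among all 523 genes with the core, 49 were higher and 25 lower.

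Toll-like receptor and adaptor genes were higher for 12 of 23 and lower for none. Tlr7, the receptor of resiquimod, read 4.95, 4.91 and 5.01 in PBS, 5.03, 5.07 and 4.95 in ovalbumin and 5.76, 5.72 and 5.59 in resiquimod arrays (1.66-fold, 0.73 ± 0.10, adjusted p = 0.00022). The resiquimod arrays lay above all others on this brightest probe set, but the other 2 Tlr7 probe sets, at weak signal, differed by 0.17 and 0.10 and were not called. Tlr13, an endosomal sensor of bacterial ribosomal RNA, rose by 1.39 ± 0.12 (adjusted p = 1.78e-06), and the lipopolysaccharide co-receptor genes Cd14 and Ly96 by 1.17 ± 0.12 and 0.76 ± 0.11. Irak3, a brake on this pathway, rose by 0.85 ± 0.19 (adjusted p = 0.00843), a call lost in the fit on 6 arrays (0.0826) and in the 10 arrays without squamous transcripts (0.0862). Tlr8 and Tlr9, endosomal relatives of Tlr7, were not called (0.012 ± 0.20 and 0.032 ± 0.092). Without A/J PBS replicate 1, PBS replicate 3 or resiquimod replicate 2, 7, 6 and 6 of the 23 were called; in the fit on 6 arrays 4 were, and in the 10 arrays without squamous transcripts 5.

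**Figure D4:**
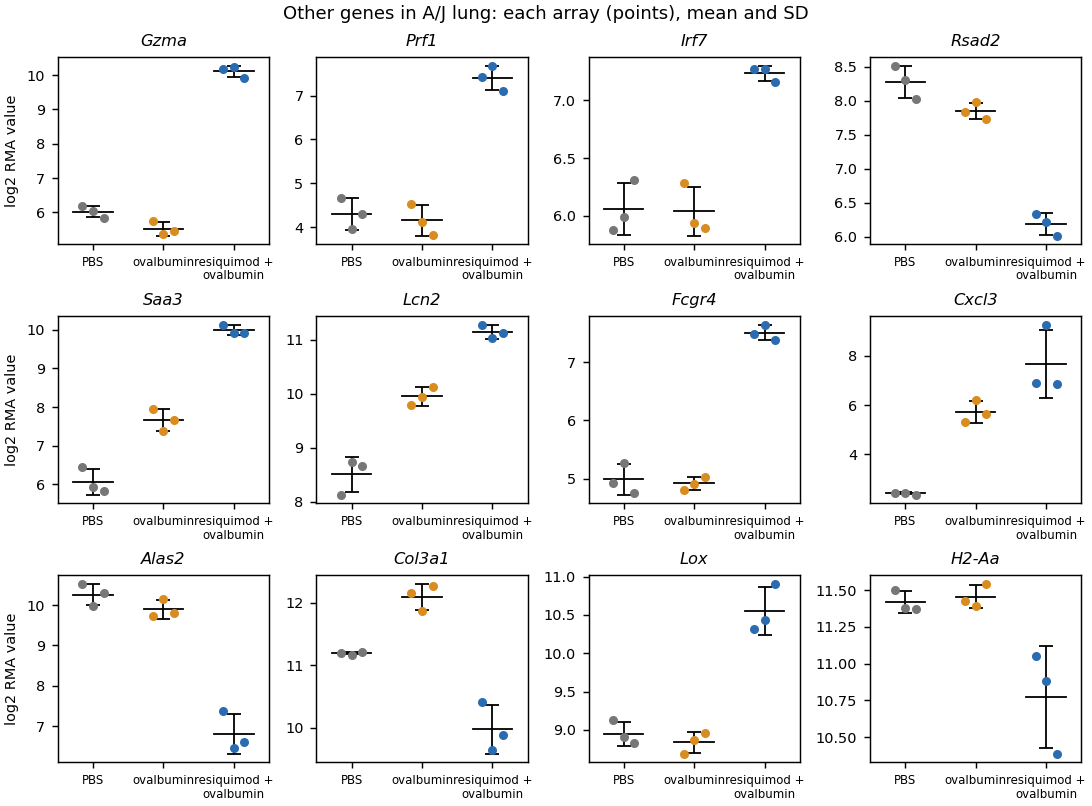
Log2 RMA value of 12 further genes on each array (points) of the A/J PBS, ovalbumin and resiquimod plus ovalbumin groups, with the mean (line) and SD (bar) of 3 arrays; axes differ between genes. Gzma, Prf1, Irf7, Fcgr4 and Lox are high in the resiquimod arrays alone, Saa3, Lcn2 and Cxcl3 are highest there after an intermediate ovalbumin group, and Rsad2, Alas2, Col3a1 and H2-Aa are lowest there.

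Macrophage and monocyte genes were higher for 17 of 24 and lower for none, with a median of 0.87 against 0.44 in the ovalbumin group. Fcgr4, an activating IgG receptor of monocytes and neutrophils, read 4.93, 5.27 and 4.76 in PBS, 4.81, 4.91 and 5.03 in ovalbumin and 7.49, 7.65 and 7.39 in resiquimod arrays (5.75-fold over PBS, 2.52 ± 0.14, adjusted p = 1.21e-08). Marco, a scavenger receptor of macrophages, read 6.90, 7.27 and 6.80 in PBS and 9.62, 9.31 and 9.38 in resiquimod arrays (5.46-fold, adjusted p = 6.86e-06). Neither group overlapped the other for these genes. The integrin chain Itgam rose by 1.90 ± 0.28, the complement chain C1qb of tissue macrophages by 1.52 ± 0.14, and Adgre1 by the difference given with the eosinophil list.

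Neutrophil genes were higher for 9 of 16, and the neutrophil chemokine and acute inflammation genes for 6 of 19 with 1 lower. Cxcl3, a neutrophil attractant, read 2.46, 2.45 and 2.38 in PBS, 5.33, 6.22 and 5.63 in ovalbumin and 6.88, 9.25 and 6.83 in resiquimod arrays, the largest rise of the rule's genes (37.5-fold, 5.23 ± 0.45, adjusted p = 1.53e-06). Resiquimod replicate 2 was the highest array for Cxcl3, and also for the related Cxcl2, which read 3.38, 3.02 and 2.97 in PBS and 5.20, 8.30 and 4.22 in resiquimod arrays (2.78 ± 0.63, adjusted p = 0.00963). Cxcl2 was not called in the fit on 6 arrays (adjusted p = 0.133) or in the 10 arrays without squamous transcripts (0.14). Cxcl1 was not called on its brightest probe set (0.14 ± 0.10), and the median over its probe sets was called (1.13, adjusted p = 0.0204).

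Saa3, an acute-phase apolipoprotein made in inflamed lung, read 6.44, 5.94 and 5.82 in PBS, 7.95, 7.38 and 7.67 in ovalbumin and 10.13, 9.90 and 9.92 in resiquimod arrays (15.1-fold, 3.92 ± 0.22, adjusted p = 1.35e-08). Lcn2, the iron-scavenging lipocalin of neutrophils and epithelium, read 8.13, 8.73 and 8.66, 9.78, 9.94 and 10.13 and 11.28, 11.03 and 11.12 in the same order (6.24-fold over PBS, 2.64 ± 0.15, adjusted p = 1.21e-08). For both genes the 3 groups followed each other without overlap. Mmp8, the neutrophil collagenase, rose by 2.28 ± 0.30 (adjusted p = 0.000107), the formyl peptide receptor Fpr2 by 1.59 ± 0.19, and Stfa2l1, a stefin of neutrophils, by 2.69 ± 0.29 (adjusted p = 1.75e-05). The alarmin S100a8 read 9.64, 9.71 and 8.31 in PBS and 10.51, 11.58 and 10.15 in resiquimod arrays (1.53 ± 0.38, adjusted p = 0.0176), a call lost without A/J PBS replicate 3 or A/J resiquimod replicate 2 (0.0936 to 0.101). Leaving out A/J resiquimod replicate 2 gave 5 higher neutrophil genes, and in the 10 arrays without squamous transcripts 5 of these and 3 of the chemokine and acute genes were called.

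Complement genes were higher for 6 of 11 and lower for none. Cfb, factor B of the alternative pathway, rose by 1.72 ± 0.092 (adjusted p = 1.00e-08), and C3ar1, the C3a receptor, by 1.17 ± 0.14. MHC class I and immunoproteasome genes, which load peptides for CD8 T cells, were higher for 6 of 12. Psmb8 and Psmb9, catalytic subunits of the immunoproteasome, rose by 0.68 ± 0.11 and 0.56 ± 0.10, and H2-K1, a classical class I chain, read 11.37, 11.30 and 11.46 in PBS and 12.03, 12.11 and 11.90 in resiquimod arrays (0.63 ± 0.072, adjusted p = 2.92e-05). The 10 arrays without squamous transcripts called 2 of these 12 and 3 of the 11 complement genes. The class I genes are polymorphic between strains, and how well their probe sets match A/J transcripts was not tested.

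MHC class II genes, which present peptides to helper T cells, were lower for 4 of 11, and 1, the cathepsin Ctss (0.43 ± 0.079, adjusted p = 0.00203; 0.081 in the 10 arrays without squamous transcripts), was higher. H2-Aa read 11.50, 11.38 and 11.37 in PBS and 11.05, 10.88 and 10.39 in resiquimod arrays (-0.64 ± 0.12, adjusted p = 0.0026), and H2-Eb1 read 10.34, 10.20 and 10.21 and 9.84, 9.54 and 9.25 (-0.71 ± 0.12, adjusted p = 0.000853). The groups did not overlap for either gene, and replicate 3, the resiquimod array that stood apart, was the lowest of its group for both. The list mean was 8.83, 8.75 and 8.65 in PBS arrays and 8.53, 8.55 and 7.98 in resiquimod arrays. Without that replicate, or without A/J PBS replicate 1, 2 of the 11 were called lower, and 1 was in the fit on 6 arrays. Among 17 dendritic cell genes 3 were higher and 4 lower, with Cd209a (given above) the largest fall and Irf4, a factor of type 2 dendritic cells and plasma cells, the largest rise (1.38 ± 0.29, adjusted p = 0.00655). Leaving out A/J resiquimod replicate 3 gave 5 higher dendritic cell genes, and leaving out A/J PBS replicate 3 or A/J resiquimod replicate 2 gave 2 lower.

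B cell and plasma cell genes split as well, with 4 higher and 4 lower of 17. Mzb1, a chaperone of antibody secretion, read 7.21, 7.26 and 6.56 in PBS, 7.90, 6.66 and 7.67 in ovalbumin and 10.78, 9.44 and 10.07 in resiquimod arrays (8.52-fold, 3.09 ± 0.40, adjusted p = 0.000106), without overlap. Jchain, which joins secreted IgA and IgM, was not called (0.89 ± 0.58, adjusted p = 0.434), nor were the B cell surface genes Ms4a1 (0.60 ± 0.35) and Cd79a (0.48 ± 0.27). Fcer2a, the low-affinity IgE receptor CD23 of mature B cells, read 6.67, 7.22 and 6.65 in PBS and 5.28, 5.37 and 5.48 in resiquimod arrays (-1.47 ± 0.14, adjusted p = 6.27e-06). Cr2, the complement receptor CD21, fell too (-1.20 ± 0.18, adjusted p = 0.000328). The other 2 lower members were Ebf1, a transcription factor of the B lineage (-0.53 ± 0.12, adjusted p = 0.00797; 0.0697 for the median over its probe sets), and Sdc1, a syndecan of plasma cells and epithelium (-0.25 ± 0.073, adjusted p = 0.041; lost without A/J ovalbumin replicate 3, A/J PBS replicate 2 or 3, A/J resiquimod replicate 1, 2 or 3, C57BL/6 ovalbumin replicate 1, C57BL/6 PBS replicate 1 or C57BL/6 resiquimod replicate 3, 0.0506 to 0.164). The calls of 2 higher members, Pou2af1 and Tnfrsf17, were lost in several fits that left out an array, and 2 of the 17 were called higher when A/J PBS replicate 1, 2 or 3 or A/J resiquimod replicate 1 was left out. Tnfrsf17 was also lost with the replicate number as a block (adjusted p = 0.0743), as were the lower member Sdc1 (0.0804) and the dendritic cell gene Siglech (0.0649).

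Fibroblast and matrix genes were lower than in PBS for 16 of 23, with a median of -0.51, and 1, Lox, was higher. The ovalbumin group had 6 of the 23 higher, 2 lower and a median of 0.18. Col3a1, the fibrillar collagen of distensible tissue, read 11.20, 11.17 and 11.21 in PBS, 12.15, 11.87 and 12.28 in ovalbumin and 10.40, 9.63 and 9.88 in resiquimod arrays. Its resiquimod arrays lay below every PBS array, and its ovalbumin arrays above (-1.22 ± 0.15 against PBS, adjusted p = 5.82e-05; -2.13 against ovalbumin, adjusted p = 1.64e-07). Col1a1 and Col1a2, the chains of type I collagen, fell by 1.08 and 1.18 on the log2 scale (adjusted p = 0.000228 and adjusted p = 1.18e-05), and Col6a3 by 1.31 (adjusted p = 4.51e-06).

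Mfap4, a microfibril protein of elastic fibres, read 10.72, 10.94 and 11.21 in PBS, 10.63, 10.30 and 9.71 in ovalbumin and 8.73, 8.71 and 8.63 in resiquimod arrays (-2.27 ± 0.19, adjusted p = 1.35e-06). Pcolce, which helps trim procollagen, read 10.20, 10.32 and 10.27 in PBS and 8.94, 8.23 and 8.49 in resiquimod arrays (-1.71 ± 0.12, adjusted p = 2.20e-07). Fmod, a collagen-binding proteoglycan, fell by 2.54 on its brightest probe set (adjusted p = 0.00139). The other Fmod probe sets differed by -0.68 to -1.36. The matrix list had 12 lower genes in the 10 arrays without squamous transcripts and 12 to 16 when an array was left out.

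Smooth muscle genes were lower for 5 of 14, but Acta2, the smooth muscle actin, and Tagln did not pass (-0.027 ± 0.089 and -0.13 ± 0.083). Cardiac muscle genes, which whole lung carries in pulmonary vein walls and any attached heart tissue, were lower for 4 of 10. Myl7, the atrial myosin light chain, read 11.82, 11.03 and 11.72 in PBS and 10.28, 10.27 and 9.98 in resiquimod arrays (-1.35 ± 0.21, adjusted p = 0.000619), and Tnnc1, a troponin of heart and slow muscle, read 9.45, 8.63 and 9.48 and 7.68, 7.60 and 7.28 (-1.67 ± 0.22, adjusted p = 0.000135). The 10 cardiac genes averaged 9.63, 8.42 and 9.61 in PBS and 8.91, 8.65 and 8.28 in resiquimod arrays, which overlap. The amount of attached heart tissue was not tested. Brown and white fat genes (7 measured) and thymus genes (7 measured) had no member called in limma, near the 5.86% of all genes higher and 5.27% lower. In each of these lists, 2 genes were lower at an unadjusted p under 0.05. Ucp1, the uncoupling protein of brown fat (-2.01 ± 0.92, adjusted p = 0.224), was called lower in a fit on the 9 A/J arrays (adjusted p = 0.0385) and without C57BL/6 ovalbumin replicate 1 (0.0487).

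Red cell and haem genes were among the largest falls, with 3 of 6 lower. Alas2, the enzyme of haem synthesis in red cell precursors, read 10.52, 9.98 and 10.29 in PBS, 9.72, 10.15 and 9.81 in ovalbumin and 7.38, 6.44 and 6.61 in resiquimod arrays (10.9-fold lower, -3.45 ± 0.24, adjusted p = 1.43e-07). All resiquimod arrays were below 7.5 and all others above 9.5. Slc4a1, the red cell anion exchanger, fell by 2.10 (adjusted p = 9.84e-05) and Bpgm, an enzyme of red cell glycolysis, by 1.34. Outside the list, Slc25a37, the mitochondrial iron importer, fell by 1.99. Hbb-b2, a beta globin, read 8.27, 7.51 and 7.80 in PBS and 4.69, 4.31 and 4.30 in resiquimod arrays (-3.42 ± 0.20, adjusted p = 2.56e-08) on a probe set that can match other globins, and a second probe set at weak signal differed by 0.26. How much blood each lung held was not tested.

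Lipid synthesis genes were lower for 7 of 15 and higher for 1. Scd1, the stearoyl-CoA desaturase, read 12.78, 12.47 and 12.82 in PBS and 11.09, 11.04 and 11.11 in resiquimod arrays (-1.61 ± 0.12, adjusted p = 3.82e-07), and Fasn, fatty acid synthase, fell by 1.08 (adjusted p = 0.00221). Thrsp, a regulator of lipid synthesis in fat and liver, read 8.87, 8.11 and 9.43 in PBS and 6.04, 5.14 and 6.85 in resiquimod arrays (-2.79 ± 0.70, adjusted p = 0.019). Its PBS arrays spread widely, and its call was lost without A/J PBS replicate 1 or 3 or A/J resiquimod replicate 1 or 2 (0.0505 to 0.091). With the replicate number as a block the calls of Elovl6 (lower, adjusted p = 0.0535) and Sqle (higher, 0.0685) were lost. Leaving out A/J PBS replicate 1, A/J PBS replicate 3 or A/J resiquimod replicate 2 gave 3 lower genes of the 15, and leaving out A/J resiquimod replicate 3 gave 4.

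Glucocorticoid-responsive genes, which injection and handling can raise, were higher for 7 of 11 and lower for none. Lcn2, described above, is a member and belongs to acute inflammation as well. The metallothionein genes Mt2 and Mt1 rose by 1.66 ± 0.18 and 1.19 ± 0.12, and Fkbp5, a chaperone of the glucocorticoid receptor, read 7.59, 7.84 and 7.48 in PBS and 8.51, 8.39 and 9.31 in resiquimod arrays, highest in replicate 3 (1.10 ± 0.20, adjusted p = 0.00182; 0.0657 in the 10 arrays without squamous transcripts). The mean of the list was 8.22, 8.01 and 8.30 in PBS arrays and 8.96, 9.18 and 9.76 in resiquimod arrays. Of 14 clock genes, whose levels follow the hour of collection, 4 were lower, among them the output gene Dbp (-1.21 ± 0.16, adjusted p = 0.00014) and the repressor Nr1d1 (-0.57 ± 0.12). Leaving out A/J PBS replicate 1 gave 7 lower. Injection stress and time of collection are not given in the labels, and their part in the results was not tested.

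Alveolar and endothelial lists each had genes called in both directions. Of 17 alveolar and club cell genes 2 were higher and 3 lower (1 lower without A/J PBS replicate 2), and Sftpc, surfactant protein C, and Scgb1a1, the club cell secretoglobin, differed by -0.038 ± 0.054 and 0.041 ± 0.053 and were not called. Of 13 ciliated cell genes, 1 was higher and none lower, near the 5.86% and 5.27% of all genes. That gene was Foxj1, the factor that drives ciliation (0.50 ± 0.13, adjusted p = 0.0239). The call of Foxj1 was lost without A/J PBS replicate 1 or 3 or A/J resiquimod replicate 2 or 3 (0.0799 to 0.0993). Of 19 endothelial genes, 2 were higher and 4 lower. Vwf, the clotting factor of vessel walls, read 10.23, 10.08 and 10.04 in PBS and 10.74, 10.77 and 10.93 in resiquimod arrays (0.70 ± 0.094, adjusted p = 0.000138), and Emcn, a sialomucin of capillaries and veins, fell by 0.47 (adjusted p = 0.00784; 0.0524 without A/J PBS replicate 3). The 4 lower genes became 2, 1 and 2 without A/J PBS replicate 2, A/J PBS replicate 3 or A/J resiquimod replicate 1, and 1 in the 10 arrays without squamous transcripts.

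The same comparison in C57BL/6 mice, whose group means use none of these arrays, called 1749 genes higher and 1303 lower (9.61% and 7.16%). Its estimate of spread per probe set came from all 18 arrays, so calls in the strains were not independent. The overlap of higher genes was 717, which is 67.3% of the 1066 in A/J and 41% of the 1749 in C57BL/6, and 4 A/J genes went the opposite way. The overlap of lower genes was 505, or 52.7% of the 959 in A/J and 38.8% of the 1303 in C57BL/6, and 14 went the opposite way. Gzma rose by 4.08 in A/J and by 4.03 in C57BL/6, and the difference between strains was not called (interaction 0.051 ± 0.19, adjusted p = 0.961). The interaction, the A/J difference minus the C57BL/6 difference, was called for 41 genes as higher in A/J and 130 as lower (0.225% and 0.715%).

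**Figure D5:**
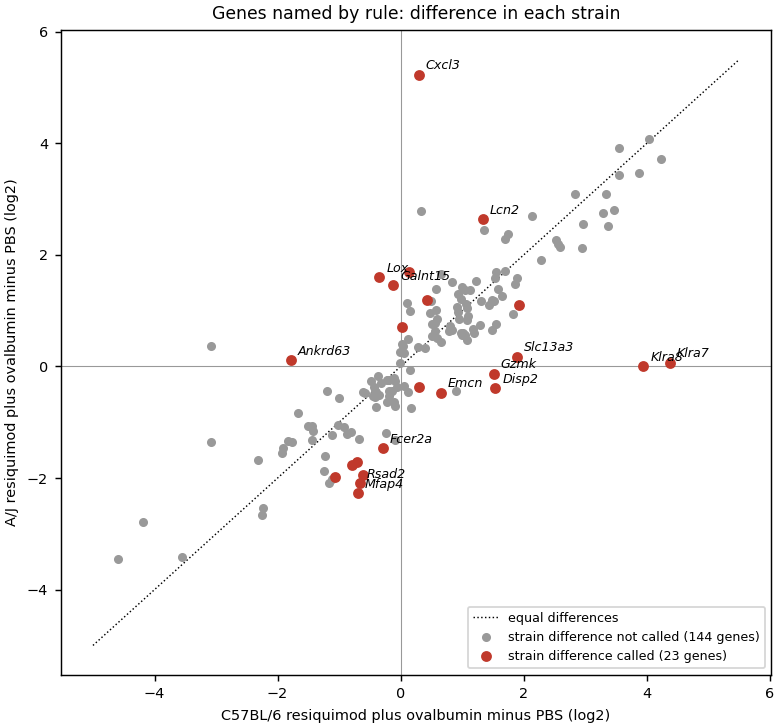
Difference of resiquimod plus ovalbumin minus PBS in A/J (vertical, log2) against C57BL/6 (horizontal, log2) for 167 genes named by rule, each a point; red marks the 23 genes whose difference between strains was called and the dotted line equal differences. Most points lie near the line, with Cxcl3, Lox and Galnt15 above it and Klra7 and Klra8 far to its right; many of the genes were chosen for their A/J values.

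Cxcl3 was the largest difference in favour of A/J. In C57BL/6 it read 2.65, 2.47 and 2.34 in PBS and 2.59, 2.44 and 3.32 in resiquimod arrays, beside A/J resiquimod values of 6.88, 9.25 and 6.83 (interaction 4.94 ± 0.63, adjusted p = 0.000924). Lox read 8.90, 9.17 and 8.74 in C57BL/6 PBS and 8.75, 8.42 and 8.59 in C57BL/6 resiquimod arrays, so the rise seen in every A/J array was absent from these values (interaction 1.95 ± 0.21, adjusted p = 0.000203). Galnt15, a glycosyltransferase, rose in A/J (7.03, 6.83 and 7.16 to 8.39, 8.21 and 8.77) and read 7.12, 6.97 and 6.87 in C57BL/6 resiquimod arrays (interaction 1.57, adjusted p = 0.000271). In the 10 arrays without squamous transcripts, where C57BL/6 PBS is 1 array whose own spread is not measured, the adjusted p of the interaction was 0.0381 for Lox, 0.164 for Cxcl3 and 0.19 for Galnt15.

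On the other side, the natural killer receptor genes Klra7 and Klra8 read 2.58, 2.64 and 2.74 and 2.63, 2.45 and 2.66 in A/J resiquimod arrays and 2.57, 2.53 and 2.67 and 2.59, 2.55 and 2.59 in A/J PBS arrays, and were not called in A/J on these probe sets. A second Klra7 probe set was called higher in A/J (0.43, adjusted p = 0.0406). In C57BL/6 they rose from 2.96, 3.06 and 2.97 to 7.57, 7.13 and 7.41 for Klra7 (interaction -4.31 ± 0.14, adjusted p = 4.33e-11) and by 3.94 ± 0.13 for Klra8. These paralogues vary between strains, the A/J values lie below the 25th percentile of all values, and how well the probe sets match A/J transcripts was not tested. Gzmk rose in C57BL/6 (1.51 ± 0.20) but not by the test in A/J (interaction -1.64, adjusted p = 0.0112). Rsad2 fell in both strains, by 2.09 in A/J and 0.67 in C57BL/6, and fell further in A/J (interaction -1.42 ± 0.26, adjusted p = 0.0154; up to 0.0547 without C57BL/6 PBS replicate 1 or C57BL/6 resiquimod replicate 3), as did Mfap4 (2.27 and 0.69; interaction -1.57, adjusted p = 0.0118). Nnt, a mitochondrial gene that separates C57BL/6 substrains, read 7.04, 7.27 and 6.90 in the C57BL/6 PBS arrays and 8.35, 8.41 and 8.27 in the C57BL/6 resiquimod arrays, and its relation to the strain differences was not tested. The 41 and 130 genes of the interaction together ranged from 87 to 209 when an array was left out, and 16 were called in the 10 arrays without squamous transcripts, with 1 C57BL/6 PBS array. The arrays whose removal moved the total of 171 by over 1.5 times were A/J PBS replicate 2 (103), A/J resiquimod replicate 3 (104), C57BL/6 PBS replicates 1 and 3 (102 and 112) and C57BL/6 resiquimod replicates 1 and 3 (103 and 87).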

How the data were processed

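Whole-lung RNA was hybridised to 18 Affymetrix arrays. The deposited values are log2 RMA expression values per probe set, made by the authors with the affy package in R, per the submitters' processing notes; the version is not given in the sources used here. RMA normalizes all arrays to a common distribution, so changes are relative, and it compresses differences at weak signal. Array medians lay from 4.77 to 4.80 and values from 2.00 to 14.0.

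After 64 control probe sets were left out, linear models over 45037 were computed in limma 3.58.1 (R 4.3.3; 6 group means, moderated by eBayes, 12 residual degrees of freedom, Benjamini-Hochberg over all probe sets). Every adjusted p in the text is from limma; called genes had one under 0.05. The script was tested on simulated data. Of these probe sets, 34945 name 1 gene in the platform annotation, 932 several and 9160 none; symbols were updated through Entrez IDs in RefSeq, which held 34741 of the 34945. The brightest probe set naming a gene alone stood for it, and a gene of the rule below is not reported here. The precision is set by 3 arrays per group, for which an exact permutation test cannot go below p = 0.1.

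The samples, the 36 gene lists (562 of 618 genes measured) and the rule for named genes were chosen with earlier results of these data known. The rule took the 15 largest rises and 15 largest falls among called genes whose groups did not overlap, up to 4 called members of each list and direction or 2 as values, 18 genes of prior interest, the 5 largest strain differences in each direction and the 10 genes most raised by ovalbumin in C57BL/6. Outside the rule, Acta2, C1qb, Ccl17, Ccl2, Ccl22, Ccl24, Cd209e, Cd3e, Cd4, Cd79a, Cd8a, Cxcl1, Cxcr3, Epx, Fkbp5, Foxa3, Gbp2, Ifit1, Irf1, Jchain, Klrd1, Klrg1, Mmp12, Ms4a1, Muc5b, Mx1, Ncr1, Nnt, Prg2, Scgb1a1, Sftpc, Stat4, Tagln, Tlr8, Tlr9 and Xcl1 were chosen after their values were seen.

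Replicate numbers come from the labels, which do not say what they share. Deviations from the group means of same-numbered resiquimod and PBS arrays of A/J correlated at 0.502, 0.291 and 0.157. The other pairs of groups did not pass this check. An alternative fit took the replicate number within each strain as a block, shared by all groups of that strain. The block was thus not limited to the resiquimod and PBS groups of A/J, and its results do not show the effect of that pairing alone. Other alternatives changed the arrays fitted, the normalization between arrays, the filter on weak probe sets, the eBayes prior, array weights and the probe set standing for a gene.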

Additional observations from a re-analysis of the deposited data

Results flagged for a closer look

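The comparison of resiquimod plus ovalbumin with PBS was tested for a difference between strains, as the A/J log2 difference minus the C57BL/6 log2 difference. Of the genes named by the rule, 23 passed (limma, adjusted p under 0.05). Genes named in the text outside the rule, such as Nnt, were not counted. No explanation was tested for any of them.

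Genes with a larger or opposite value in A/J were Cxcl3 (4.94), Lox (1.95), Galnt15 (1.57), Lcn2 (1.31), Ankrd63 (1.90), A2ml1 (1.55), Mt1 (0.763) and Vwf (0.669). For Ankrd63 the difference lay in C57BL/6, where it fell by 1.79, while A/J differed by 0.11 and was not called. Lcn2 rose in both strains, by 2.64 in A/J and 1.33 in C57BL/6. The calls of A2ml1, Vwf and Mt1 did not survive 7, 8 and 15 of the 18 refits with an array removed, with adjusted p up to 0.0758, 0.0803 and 0.138.

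Genes with a smaller rise, a larger fall or an opposite value in A/J included the lymphocyte genes Klra7 (-4.31), Klra8 (-3.94), Gzmk (-1.64) and Il2rb (-0.817). Il2rb rose in both strains, by 1.10 in A/J and 1.92 in C57BL/6 on its brightest probe set. A second Il2rb probe set of similar signal rose by 1.8 in A/J, and its strain difference is not given here. Disp2 (-1.93) and Slc13a3 (-1.71) rose in C57BL/6 by 1.53 and 1.88 and were not called in A/J. Matrix genes that fell further in A/J were Mfap4 (-1.57) and Pcolce (-1.0).

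Slc38a5 (-1.34), Bex2 (-0.969) and Slc25a37 (-0.917) also fell further in A/J. Fcer2a (-1.18) fell in A/J and was not called in C57BL/6. Emcn (-1.12) fell by 0.47 in A/J and rose by 0.65 in C57BL/6, and Cmpk2 (-0.675) fell by 0.37 and rose by 0.30. Rsad2 (-1.42) fell in both strains. The calls of Rsad2, Bex2, Cmpk2 and Slc25a37 did not survive 2, 4, 7 and 13 of these 18, with adjusted p up to 0.0547, 0.0587, 0.0684 and 0.122.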

How the results depend on the processing

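No named gene called in the A/J resiquimod comparison changed sign under the alternatives run. Medians of lists that lay near 0 did: with an array left out they ranged from -0.055 to 0.034 for antiviral, -0.58 to 0.61 for squamous, -0.057 to 0.0085 for type 2 cytokine and -0.00023 to 0.087 for eosinophil genes. Lower calls outnumbered higher ones without A/J PBS replicate 1 (744 higher, 806 lower) and in the 10 arrays without squamous transcripts. With the replicate number as a block, 984 genes were higher and 872 lower in the A/J resiquimod group than in PBS; the calls of Muc5ac, Elovl6, Foxa3, Sdc1, Siglech, Sqle and Tnfrsf17 were lost (adjusted p of 0.0535 for Elovl6 to 0.0804 for Sdc1), those of Mx1 and Xcl1 (0.0232) were gained, and no other named call changed. The probe sets called in this comparison, 3636, became 2172 in the fit on 6 arrays (632 genes higher, 553 lower), 1895 at an adjusted p under 0.01 (596 and 514), 400 at 2-fold or more (195 and 66) and 1492 in the 10 arrays without squamous transcripts (427 and 450). In the last, A/J ovalbumin and C57BL/6 PBS are 1 array each, assumed to vary like the other groups, so calls that involve them have no spread of their own behind them; it gave 79 genes for ovalbumin against PBS, 342 for resiquimod against ovalbumin, 557 higher and 233 lower for resiquimod and 84 higher for ovalbumin in C57BL/6, 16 for the strain difference and 95 of the C57BL/6-raised genes in A/J. It also lost the calls of Agr2, Ccl2, Ccl7, Ccl8, Ccl11, Ccl12, Cd209d, Chia1, Cmpk2, Ctsk, Ctss, Cxcl2, Cxcl10, Cxcr3, Elovl6, Fcgbp, Fkbp5, Foxj1, Irak3, Mrc1, Muc5ac, Muc5b, Oas1a, Psmb8, Psmb9, S100a8, Sdc1, Siglecf, Siglech, Sqle, Tff2, Thrsp, Tnfrsf17 and Tslp (adjusted p of 0.0501 for Cmpk2 to 0.35 for Muc5ac). The fit on 6 arrays lost those of Ccl7, Ccl8, Ccl11, Ccl12, Cd209d, Cmpk2, Cxcl2, Cxcr3, H2-Aa, Irak3, Mrc1, Muc5ac, Muc5b, Oas1a, S100a8, Sdc1, Siglecf, Siglech, Sqle, Tff2, Tnfrsf17 and Tslp (0.0556 for Oas1a to 0.195 for Ccl12). The fit on the 9 A/J arrays gave 436 for ovalbumin against PBS and 1104 for resiquimod against ovalbumin, and eBayes with a trend and robust prior gave 291 for the strain difference. With 1 array left out, the resiquimod comparison had 2373 to 3665 probe sets, 742 to 1062 higher and 599 to 976 lower genes, with the lowest of 599 and 2373 without A/J PBS replicate 3. Ovalbumin against PBS had 409 to 853, the strain difference 87 to 209, C57BL/6 resiquimod 805 to 1318 lower and C57BL/6 ovalbumin 155 to 287 higher. Below the median signal of 4.78, RMA compresses differences, which limits the cytokine genes and Prg2, Epx, Gzmk and Ifng. The cause of these changes was not tested.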
